A study of Mus musculus with 30 samples.

Results

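The response of wild-type (WT) mouse dendritic cells to 30 min with ovalbumin protein (OVA), the chicken egg-white protein used as a model antigen, was examined across all genes. The comparison sets the 3 WT libraries given OVA for 30 min against the 3 WT libraries left untreated, 6 of the 30 libraries of the series, and 14808 of 25611 gene rows passed the filter on low counts. All groups were bone marrow cultures kept 6 to 7 days with the growth factor FLT3L (200 ng/ml). WT here means that the cells carried intact Rubcn, which encodes Rubicon, a protein needed for LC3-associated phagocytosis, and the other genotype of the series is a knockout of Rubcn (KO). The wider study measured both genotypes untreated, at 30 min and 4 h of OVA, and at the same times with apoptotic Jurkat cells (a human T-lymphocyte leukaemia line), in 10 groups of 3 libraries. The labels give neither the dose of OVA nor whether untreated cells were handled for the same time. They also do not say whether the replicates came from separate mice, so p-values measure only the spread between these samples.

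FLT3L cultures hold plasmacytoid dendritic cells, which are specialised for type I interferon, and conventional dendritic cells, which take up, process and present antigen. When a pattern-recognition receptor of such a cell is engaged, adaptor kinases release NF-kB from its inhibitor IkB and activate MAP kinases. Primary response genes are then transcribed within minutes, without new protein. They encode chemokines, cytokines, transcription factors and the feedback inhibitors that end the signal, while interferon-stimulated genes generally follow later, through secreted interferon.

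Total counts of the 6 libraries ran from 42.7 M to 47.3 M, and replicates of a group differed by more than sampling noise in every pair. Levels are counts scaled to a common library size (CPM), with TMM factors that assume most genes do not differ. In a principal component analysis of these 6 libraries, the OVA libraries lay at -10.1 to -2.52 and the untreated ones at 1.85 to 9.44 along an axis with 56.6% of the variance. Dendritic cell markers were high in all 6 libraries. The summed level of 13 plasmacytoid markers was 5606 to 5718 CPM untreated and 5212 to 5656 CPM with OVA, and that of 10 markers of conventional dendritic cells type 1 was 5401 to 5757 and 5119 to 5595 CPM. B-cell markers summed to at most 29.6 CPM, T and natural killer cell markers to at most 28.0 CPM and erythroid markers to at most 2.85 CPM. Monocyte or macrophage markers were also high, with a sum over 13 markers of 4656 to 5369 CPM untreated and 4935 to 5580 CPM with OVA. In that list 11 of 13 members had a positive log2 difference. The 2 called higher were Cd14 and Mertk, 15.4% against 10.7% called among all genes. Mertk lost its call in 5 of 13 fits with other scaling, filter, tool or samples. The abundant Lyz2 and Ccr2 differed by 0.01 and 0.07 on the log2 scale. Of 10 markers of conventional dendritic cells type 2, Tnip3 was called higher and Cd209a lower, 20% against the same 10.7%. The sums over these 10 markers were 2021 to 2099 CPM untreated and 2080 to 2168 CPM with OVA. Irf8 was called lower and is in both of the other dendritic cell lists. No other member was called in them (7.69% of the plasmacytoid list and 10% of the type 1 list). Irf8 counts towards both sums. It is abundant and makes up a large part of both sums, so these sums are not independent. The part of cell composition in the results below was not tested. The neutrophil, basophil, B-cell, T and natural killer cell, erythroid and stromal lists had no called member between the groups (edgeR). They held 2 to 12 tested members each, and 10.7% of all genes were called. At an unadjusted p under 0.05, the neutrophil, B-cell and stromal lists held 1 each and the others 0. Because these are bulk samples, fewer cells of a type and less RNA per cell cannot be told apart.

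A gene was called when the Benjamini-Hochberg adjusted p of edgeR's quasi-likelihood test, in a model of all 30 libraries, was under 0.05. At 30 min, 1578 genes were called, 10.7% of those tested, with 816 higher (5.51%) and 762 lower (5.15%). Most differences were small, and the median size among called genes was 0.22 on the log2 scale. Among called genes, 588 higher and 643 lower ones differed by less than 1.25-fold. At least 2-fold differences were found in 28 genes that rose (0.189% of those tested) and 13 that fell (0.0878%). Of these 41 genes, 20 lay under 1 CPM in both groups. The count of calls depended on single libraries: it was 903 without OVA replicate 1, 966 without OVA replicate 2, 907 without untreated replicate 2 and 1043 without untreated replicate 3. It was 833 when only these 6 libraries were fitted.

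**Figure D1:**
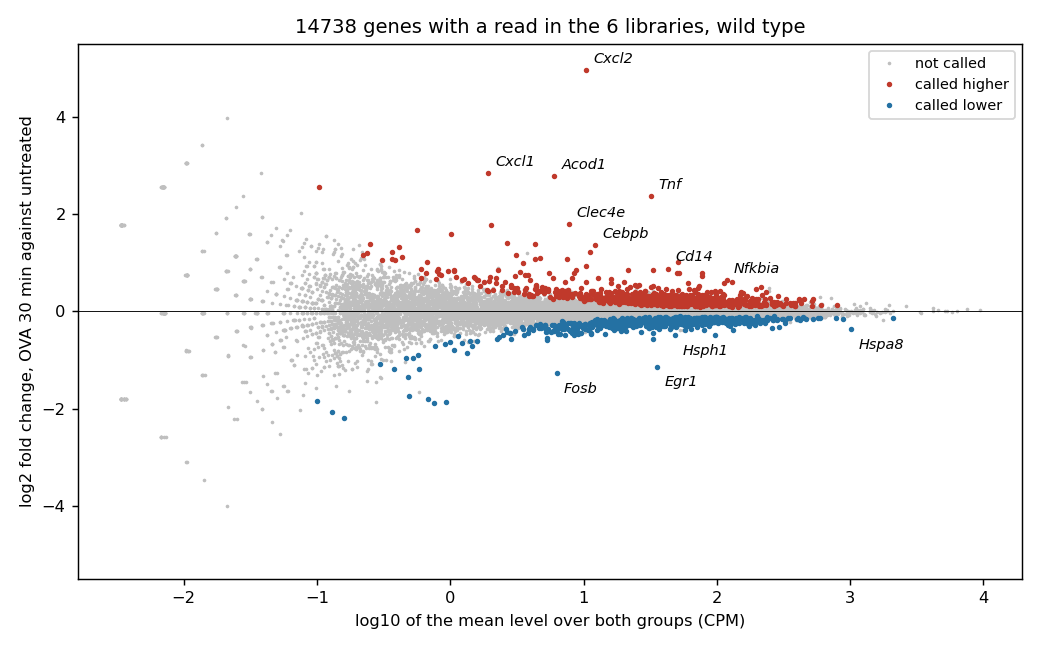
The x axis is the log10 of the mean level over both groups (CPM) and the y axis is the log2 fold change, OVA 30 min against untreated WT, for the 14738 tested genes with a read in the 6 libraries (70 had none). Red points were called higher and blue points lower; most called genes lie close to 0, and Cxcl2 stands highest at 4.96.

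The steepest rise was in Cxcl2, which encodes a chemokine that draws neutrophils through the receptor CXCR2. It lies on chromosome 5, 90903899 to 90905938, plus strand (mm10). Cxcl2 stood at 0.957, 0.366 and 0.612 CPM in the untreated libraries and at 22.1, 19.9 and 18.4 CPM with OVA. Every OVA library was far above every untreated one, a 31.2-fold rise (log2 4.96, SE 0.21; edgeR adjusted p = 5.33e-16). Its neighbour Cxcl1 (chromosome 5, 90891245 to 90893115, plus strand), a chemokine for the same receptor, went from 0.379, 0.582 and 0.429 CPM to 3.70, 2.98 and 3.39 CPM, a log2 change of 2.85 (SE 0.25). The groups did not overlap.

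Tnf, which encodes tumour necrosis factor, the prototype early inflammatory cytokine, lies on chromosome 17, 35199367 to 35202007, minus strand. Its level was 9.73, 11.5 and 10.2 CPM untreated and 56.1, 55.2 and 51.1 CPM after OVA. The groups were well apart, with a 5.17-fold rise (log2 2.37, SE 0.10; edgeR adjusted p = 5.33e-16). Acod1, which encodes the mitochondrial enzyme that makes itaconate, lies on chromosome 14, 103047012 to 103056573, plus strand. Acod1 rose from 1.76, 1.49 and 1.35 CPM to 11.0, 10.2 and 10.3 CPM, a 6.88-fold difference (log2 2.78, SE 0.51) with no overlap.

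The other genes among the 12 largest rises had lower folds. They were taken among called genes that reached 5 CPM in the higher mean and whose libraries did not overlap. Clec4e, which encodes Mincle, a C-type lectin receptor for glycolipids and for dead cells, rose by 1.80 on the log2 scale. Cdc42ep2, which encodes an effector of the GTPase CDC42, rose by 1.39. Cebpb, a transcription factor gene of inflammatory programmes, rose by 1.37 (6.84 ± 0.548 to 17.7 ± 2.11 CPM, SD, n = 3), and Prdm1, which encodes the repressor BLIMP1, by 1.21 (6.70 ± 0.320 to 15.5 ± 1.79 CPM). Ccl4 rose by 1.10, Mefv, which encodes the inflammasome sensor pyrin, by 1.08, and Gdf15, a stress cytokine of the TGF-beta family, by 1.07. Rasgef1b, which encodes a guanine nucleotide exchange factor, rose by 1.02 and was the most abundant in reads, from 33.8 ± 1.87 to 68.4 ± 3.22 CPM. Egr2, an early zinc-finger factor gene, closed the set with 0.94. All 12 were called in each of 13 other fits, which changed the scaling, filter, tool or samples.

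**Figure D2:**
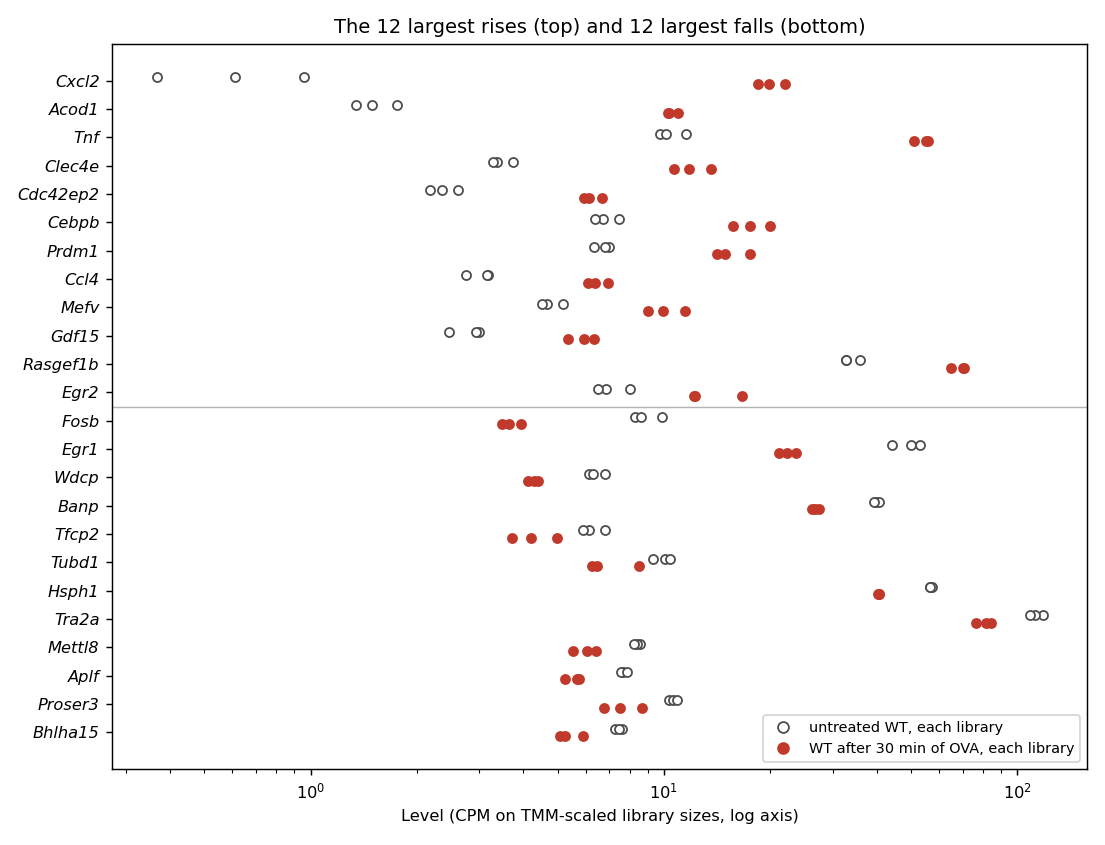
Each row is 1 gene, the x axis is its level in CPM on a log axis, open points are the 3 untreated WT libraries and red points the 3 WT libraries after 30 min of OVA. In all 24 genes, which were chosen for it, the groups do not overlap; the gap is widest for Cxcl2 and narrow for genes such as Tubd1.

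The 250 bases upstream of the annotated starts of Cxcl2, Acod1 and Tnf, the 3 largest rises among genes reaching 5 CPM, and of Fosb, the largest fall among them, are shown because they can be read beside those changes. They are RefSeq sequences on GRCm38.p6, and 11 of the 12 largest rises and 9 of the 12 largest falls matched that table. In Cxcl2, capitals mark 2 overlapping matches to the NF-kB consensus, whose outer bases lie 97 and 87 bases upstream of the start (chr5:90903649-90903898, plus strand). In Acod1 (chr14:103046762-103047011, plus strand) and Tnf (chr17:35202008-35202257, minus strand), capitals mark TATAAA, at 28 to 23 and 29 to 24 bases upstream. In Fosb (chr7:19310046-19310295, minus strand), capitals mark a match to the NF-kB consensus at 188 to 179 bases upstream.
Cxcl2: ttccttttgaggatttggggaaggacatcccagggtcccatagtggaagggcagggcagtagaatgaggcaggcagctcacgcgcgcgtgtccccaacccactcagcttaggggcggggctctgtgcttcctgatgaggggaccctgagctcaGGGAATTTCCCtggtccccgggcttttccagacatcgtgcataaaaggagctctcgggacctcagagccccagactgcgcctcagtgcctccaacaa
Acod1: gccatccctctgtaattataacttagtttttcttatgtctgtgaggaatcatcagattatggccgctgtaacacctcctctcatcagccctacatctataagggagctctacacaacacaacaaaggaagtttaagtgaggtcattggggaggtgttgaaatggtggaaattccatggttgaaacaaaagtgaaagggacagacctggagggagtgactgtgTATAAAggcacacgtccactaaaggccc
Tnf: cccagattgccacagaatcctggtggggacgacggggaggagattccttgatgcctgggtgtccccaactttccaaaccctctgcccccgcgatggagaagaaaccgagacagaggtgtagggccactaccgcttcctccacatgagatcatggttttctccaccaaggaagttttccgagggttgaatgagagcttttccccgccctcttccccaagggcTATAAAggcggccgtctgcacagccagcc
Fosb: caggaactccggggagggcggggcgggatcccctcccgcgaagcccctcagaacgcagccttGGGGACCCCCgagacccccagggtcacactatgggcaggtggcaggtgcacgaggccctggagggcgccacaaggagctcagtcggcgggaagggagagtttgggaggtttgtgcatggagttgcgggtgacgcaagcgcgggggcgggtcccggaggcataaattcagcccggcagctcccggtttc

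Across the 250 bases upstream of 32851 RefSeq starts, 3.90% held the NF-kB consensus on either strand, and it was found in Cxcl2 and Fosb among the matched genes. The TATA box word TATAAA, searched on the gene's strand, was in 7.59% of all these windows and in Acod1, Tnf and Clec4e. TGANTCA, the AP-1 word, was in 6.75% of all windows and in Prdm1, and the cyclic AMP response word TGACGTCA was in 1.55% and in Tra2a and Aplf, both among the largest falls. The serum response element, called the CArG box, was in 1.47% and in Egr2. These are matches of letters in short windows.

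Among the chemokines, 5 of 21 tested genes rose and none fell, 23.8% against 10.7% called among all genes. Besides Cxcl2 and Cxcl1 they were the macrophage inflammatory protein genes Ccl4 and Ccl3 and the macrophage chemokine Ccl9. Ccl3 went from 7.08, 6.04 and 5.92 CPM to 11.8, 11.5 and 10.8 CPM, with every OVA library above the untreated ones (log2 0.84, SE 0.19). Ccl9 rose by 0.39, and its call was lost in 1 of 13 other fits. Cxcl10, an interferon-inducible chemokine, was 2.27 ± 0.0954 CPM untreated and 5.21 ± 0.622 CPM with OVA (SD, n = 3), but did not pass the test (log2 1.20, SE 0.65; edgeR adjusted p = 0.273). Ccl22 and Ccl5, which were abundant, differed by 0.03 and 0.04.

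Among the cytokines, 7 of 24 tested genes rose and none fell, 29.2% against 10.7% among all genes. Besides Tnf, they were Il1b and Il1a, the interleukin-1 genes, the anti-inflammatory Il10, the gp130 cytokine Osm, the co-stimulatory ligand Tnfsf9 and the growth factor Pdgfb. Il1b stood at 22.8, 25.6 and 23.6 CPM untreated and at 43.2, 42.5 and 43.2 CPM with OVA. The OVA libraries were nearly equal and all above the untreated ones (log2 0.84, SE 0.15; edgeR adjusted p = 0.000574). Il10 was low, with 0.134, 0.345 and 0.327 CPM untreated and 0.873, 0.938 and 0.788 CPM with OVA, and rose by 1.67 (SE 0.33). Il1a was also low, and its rise of 1.60 lost its call in 3 of 13 other fits. Those of Tnfsf9 (0.25) and Osm (0.58) lost theirs in 2 and 1.

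Inflammatory enzymes and effectors rose in 8 of 25 tested genes, with none lower, 32% against 10.7% among all genes. Next to Acod1 and Clec4e, Ptgs2, which encodes the prostaglandin synthase COX-2, rose from 1.91, 2.03 and 1.80 CPM to 4.60, 4.59 and 3.62 CPM. All OVA libraries were above the untreated ones (log2 1.16, SE 0.26). Nlrp3, the inflammasome sensor gene, rose by 0.31 (71.3 ± 2.16 to 88.1 ± 2.66 CPM), and Sod2, which encodes mitochondrial superoxide dismutase, by 0.20. Across these 3 lists the median log2 differences were 0.12, 0.22 and 0.20, against 0.00 over all genes tested.

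At the level of receptors, 6 of 30 genes of Toll-like receptors and their adaptors rose and 2 fell, 26.7% against the 10.7% called among all genes. Cd14, the co-receptor of TLR4 and TLR2, went from 31.5, 30.4 and 28.8 CPM to 57.8, 53.5 and 55.5 CPM. It was clearly higher in each OVA library (log2 0.88, SE 0.08; edgeR adjusted p = 1e-08). Tlr2, the receptor for bacterial lipoproteins, rose by 0.49 (60.6 ± 1.23 to 85.1 ± 1.12 CPM). The kinase gene Map3k7, which encodes TAK1, and its partner Tab1 rose by 0.17 and 0.31, and Tlr12, the profilin receptor gene, fell by 0.27. The call of Map3k7 was lost in 1 of 13 other fits, and the count in the list was 4 when only the 6 libraries were fitted. Unc93b1, which carries endosomal receptors to their compartment, differed by -0.06.

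In the NF-kB list, 5 of 20 genes rose, 25% against 10.7% called among all genes, and none fell. All 5 encode inhibitors, A20 partners or atypical IkB proteins, and no subunit was called. Nfkbia, which encodes the inhibitor IkB-alpha, went from 88.8, 96.0 and 92.8 CPM to 147, 141 and 148 CPM. The groups were far apart (log2 0.65, SE 0.05; edgeR adjusted p = 2.02e-09). Tnfaip3, which encodes the ubiquitin-editing enzyme A20, rose by 0.73 and Tnip3, which encodes an A20-binding protein, by 0.80. Nfkbiz, which encodes IkB-zeta, rose by 0.78 (36.8 ± 1.78 to 63.2 ± 2.78 CPM). Bcl3, an atypical IkB gene, rose by 0.26, a call lost in 3 of 13 other fits. Nfkb1, which encodes the p105 precursor of p50, differed by -0.04.

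Feedback regulators had 13 of 30 genes higher and none lower, 43.3% against 10.7% called among all genes. Zc3h12a, which encodes the mRNA-degrading nuclease Regnase-1, stood at 29.7, 29.8 and 30.2 CPM untreated and at 40.9, 42.5 and 42.7 CPM with OVA. The spread within groups was small, and the log2 rise was 0.49 (SE 0.04). Socs3, an inhibitor of JAK signalling, rose by 0.86 (15.4 ± 1.21 to 27.9 ± 2.57 CPM). The MAP kinase phosphatase genes Dusp4 (0.99), Dusp8 (0.83), Dusp2 (0.53), Dusp1 (0.51) and Dusp16 (0.35) also rose. Dusp8 lost its call in 1 of the 12 other fits that tested it. Zfp36, which encodes the mRNA-destabilising protein tristetraprolin, differed by 0.06.

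Early transcription factors split by direction. In the list of EGR, NR4A, KLF and IER genes, 5 of 25 rose and 1 fell, 24% against 10.7% among all genes. Egr2 rose, as did Egr3 (4.50 ± 0.262 to 7.25 ± 0.452 CPM, log2 0.69), the nuclear receptor gene Nr4a1 (18.4 ± 1.29 to 26.0 ± 0.277 CPM, log2 0.50), Ier3 (0.40) and Btg2 (0.13), the last with its call lost in 7 of 13 other fits. Egr1 fell: it stood at 44.2, 53.1 and 50.1 CPM untreated and at 23.7, 21.2 and 22.3 CPM with OVA. All 3 OVA libraries were under the lowest untreated one (log2 -1.13, SE 0.10; edgeR adjusted p = 5.00e-09). Egr1 lies on chromosome 18, 34861207 to 34864956, plus strand.

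AP-1 factors had 1 of 16 genes higher and 1 lower, 12.5%, near the 10.7% called among all genes. Fosb (chromosome 7, 19302696 to 19310045, minus strand), a partner of JUN proteins, went from 8.28, 9.85 and 8.61 CPM to 3.93, 3.65 and 3.49 CPM. Its groups did not overlap (log2 -1.27, SE 0.12; edgeR adjusted p = 2.35e-08). Maff, a small MAF protein gene, rose by 0.47. Fos was 70.2 ± 5.32 CPM untreated and 62.9 ± 7.78 CPM with OVA, with overlap, and Jun was 62.6 ± 1.89 and 66.4 ± 3.96 CPM. Neither passed the test (edgeR adjusted p = 0.234 and 0.409).

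Heat shock genes had 6 of 18 members lower and none higher, 33.3% against 10.7% called among all genes. The smallest of these 6 falls, at -0.11, lost its call in 8 of 13 other fits. Hsph1, which encodes the chaperone HSP110, stood at 56.5, 57.4 and 56.8 CPM untreated and at 40.2, 40.7 and 40.5 CPM with OVA. Replicates agreed within 1 CPM in each group, and the log2 difference was -0.49 (SE 0.06; edgeR adjusted p = 1.10e-06). Hspa8, the constitutive HSP70 gene, fell by 0.36, from 1107, 1174 and 1144 CPM to 875, 883 and 920 CPM. Chordc1, Dnaja1 and Dnajb1, co-chaperone genes, fell by 0.36, 0.26 and 0.20. Hsp90ab1, abundant in reads, differed by 0.03. Among genes of the unfolded protein response, 3 of 23 fell and none rose, 13%, near the 10.7% among all genes. They were the endoplasmic reticulum chaperone genes Pdia4 (-0.23), Creld2 (-0.19) and Sdf2l1 (-0.13), the last with its call lost in 6 of 13 other fits.

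The other large falls were modest in size and diverse in role. Banp, which encodes a nuclear matrix protein that binds unmethylated CG motifs, fell by 0.57 with little spread (39.9 ± 0.552 to 26.8 ± 0.539 CPM). Tra2a, which encodes a splicing regulator, fell by 0.49 (113 ± 4.78 to 80.6 ± 3.91 CPM). Wdcp (-0.59), Tfcp2, a CP2 family transcription factor gene (-0.55), Tubd1, which encodes delta-tubulin (-0.49), and Mettl8, an RNA methyltransferase gene (-0.49), followed. Aplf, a DNA end-joining factor gene (-0.47), Proser3 (-0.47) and Bhlha15, which encodes the secretory cell factor MIST1 (-0.46), completed the set. All 12 largest falls were called in each of the 13 other fits.

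Cholesterol synthesis and uptake genes rose in 10 of 23 tested members, with none lower, 43.5% against 10.7% called among all genes. Insig1, which encodes the endoplasmic reticulum anchor of the sterol sensor SCAP, went from 93.9, 91.6 and 87.9 CPM to 138, 144 and 127 CPM. The groups were clearly separate (log2 0.58, SE 0.05; edgeR adjusted p = 2.56e-08). Hsd17b7 (0.61) and Hmgcs1, which encodes an early enzyme of the pathway (0.50), also rose. Srebf2, which encodes the transcription factor that drives these genes, differed by 0.01. Of the NRF2 target list, 6 of 18 rose and none fell, 33.3% against the same 10.7%. They included Txnrd1, the thioredoxin reductase gene (132 ± 1.29 to 174 ± 8.06 CPM, log2 0.39), Srxn1 (0.53), the cystine transporter gene Slc7a11 (0.69) and the glutathione reductase gene Gsr (0.22). The other 2 calls, at 0.19 and 0.39, were lost in 6 and 5 of 13 other fits.

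Dendritic cell maturation genes rose in 6 of 24 members by small steps, 25% against 10.7% called among all genes. Cd83, a surface marker of mature dendritic cells, went from 135, 131 and 132 CPM to 176, 169 and 171 CPM. The OVA libraries were all higher (log2 0.37, SE 0.07). The adhesion molecule gene Icam1 rose by 0.36, the co-stimulatory ligand gene Cd86 by 0.25, Icosl by 0.21 and Cd274, which encodes PD-L1 and was picked after its value was seen, by 0.59. The calls of Cd86, Icosl and Cd274 were each lost in 4 of 13 other fits, and the count in the list was 2 without OVA replicate 2 and 3 without untreated replicate 2. Ccr7, the receptor that guides mature cells to lymph nodes, differed by -0.07.

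Antigen uptake receptors had 2 genes higher and 2 lower of 24, 16.7% against 10.7% called among all genes. Cd209a, a DC-SIGN homologue, fell by 0.23 (159 ± 6.63 to 135 ± 6.56 CPM), and the inhibitory Fc receptor gene Fcgr2b fell by 0.19. Mertk, a receptor for apoptotic cells, and Clec7a, which encodes the beta-glucan receptor Dectin-1, were called higher by 0.40 and 0.42, but their libraries overlapped between groups. Clec7a, for example, stood at 73.7, 54.8 and 47.1 CPM untreated and at 96.0, 72.1 and 66.0 CPM with OVA. Replicate 1 was the highest in each group. Calls were lost in 5 of 13 other fits for Mertk and in 6 for Clec7a, and the count in the list was 2 without OVA replicate 1, OVA replicate 2, untreated replicate 2 or untreated replicate 3.

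In the list for LC3-associated phagocytosis and autophagy, 3 of 31 genes rose and 1 fell, 12.9%, near the share among all genes. The LC3 family genes Gabarapl1 and Map1lc3a rose by 0.18 and 0.25, and the autophagy receptor gene Sqstm1 rose by 0.19. Rubcn itself stood at 95.6, 96.6 and 105 CPM untreated and at 81.3, 88.3 and 93.0 CPM with OVA. The groups did not overlap but lay close (log2 -0.18, SE 0.05; edgeR adjusted p = 0.0132), and the call was lost in 3 of 13 other fits. Map1lc3a lost its call in 5 and Sqstm1 in 2, and the count in the list was 2 without OVA replicate 2 or untreated replicate 2. In the KO libraries, Rubcn reads summed to 72.8 ± 2.74 CPM untreated and 74.1 ± 0.996 CPM with OVA over the whole gene. Of 33 lysosome and endosome genes 1 fell, the sorting nexin gene Snx1 (-0.16), and none rose, 3.03% against 10.7% called among all genes. That count was 4 without OVA replicate 3 and 5 without untreated replicate 1.

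No member was called among 32 genes of MHC class I and cross-presentation, 15 of MHC class II, 40 cytoplasmic ribosomal protein genes and 35 nuclear genes of oxidative phosphorylation (edgeR). DESeq2 called none in these lists either, and at an unadjusted p under 0.05 they held 2, 0, 0 and 0. Without untreated replicate 1, each MHC list had 1 call. B2m and H2-K1, of MHC class I, differed by 0.01 and -0.02, and Cd74 and H2-Aa, of class II, by 0.03 and 0.01. None of 40 interferon-stimulated genes was called either, with 2 at an unadjusted p under 0.05 and 1 called by DESeq2. Their median log2 difference was -0.17, only 6 were positive, and the count was 3 when the 6 libraries alone were fitted and 1 without OVA replicate 3 or untreated replicate 3. The abundant Samd9l differed by -0.22. Glycolysis and hypoxia genes had 3 of 30 lower and cell cycle genes 2 lower and 1 higher of 31, 10% and 9.68%, near the 10.7% among all genes. The glycolysis count was 0 without OVA replicate 1, untreated replicate 2 or untreated replicate 3, and the cell cycle count was 1 without OVA replicate 1, OVA replicate 2 or untreated replicate 2.

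**Figure D3:**
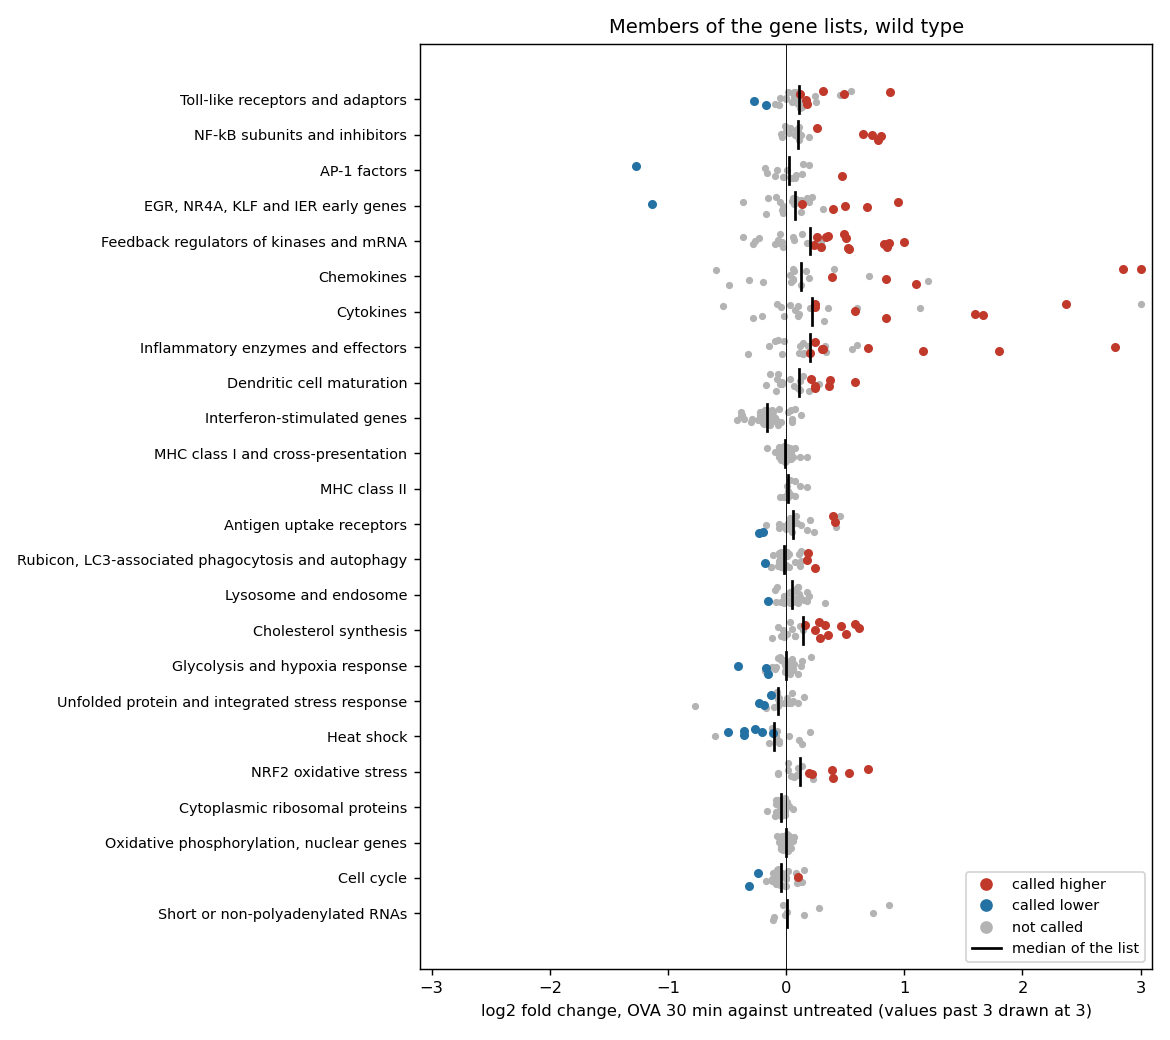
Each point is 1 gene of a list, placed by its log2 fold change, OVA 30 min against untreated WT; red and blue points were called, grey ones were not, and black bars are list medians. Chemokines, cytokines and feedback regulators extend to the right, heat shock members to the left, and interferon-stimulated genes lie mostly left of 0 with no called member.

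Most of the 2-fold falls were histone genes, a group noticed only after the values were seen. Of 41 tested genes whose symbols start with Hist, 11 were called lower and none higher, and 39 were negative, with a median of -1.01. The share called lower was 26.8%, against 5.15% among all genes. They made up 9 of the 13 falls of at least 2-fold. Linker histone Hist1h1b was 1.11, 1.23 and 1.22 CPM untreated and 0.333, 0.184 and 0.447 CPM with OVA. The groups did not overlap, but the level was low. Of the 11 called members, 10 averaged under 2 CPM untreated, so every histone fall of at least 2-fold was at a low level. The other, Hist3h2a, was at 17.0 CPM and fell by 0.25. Replication-dependent histone mRNAs end in a stem loop in place of a poly(A) tail, and near-identical copies in the clusters can share reads, so these counts are uncertain and the part of either was not tested. A mixed list of 9 noncoding RNAs had no called member (edgeR and DESeq2, 0 at an unadjusted p under 0.05) and a median of 0.01. It holds short RNAs but also the longer Snhg1, Gas5, Malat1 and Neat1, so it cannot show the part of the missing tail.

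The span of the genes is given as a description. Its median, from start to end of the deposited interval, was 20.3 kb over all genes tested, 29.2 kb over the 816 called higher and 21.7 kb over the 762 called lower. Over the 12 largest rises it was 5.79 kb, against 19.8 kb over the 12 largest falls. The 28 rises of at least 2-fold had a median of 7.67 kb, and the 13 such falls, mostly histone genes, a median of 0.776 kb. The median level untreated was 0.575 CPM over these rises and 0.753 CPM over these falls, against 20.7 CPM over all genes. No test was made of these medians.

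The same treatment in KO cells shares no library with the WT comparison. In KO cells 558 genes were called at 30 min of OVA, 3.77% of those tested, with 279 in each direction. The genes called in both genotypes numbered 395, which is 25% of the WT calls and 70.8% of the KO calls, and all 395 had the same direction. Of the 28 WT rises of at least 2-fold, 13 were called higher in KO and 25 were positive, with medians of 1.27 in WT and 0.87 in KO. Of the 13 such falls, 8 were called lower in KO and 11 were negative, with medians of -1.74 and -1.48. These genes were chosen by their size in WT, which favours a smaller median size in KO, so the medians are a description. The KO count was 287 without KO OVA replicate 3, which had 9.73 M counts, 173 without KO OVA replicate 2, 334 without KO untreated replicate 2 and 361 without KO untreated replicate 3.

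Among the 12 largest WT rises, 10 were called higher in KO, the exceptions being Ccl4 and Gdf15. Cxcl2 rose by 4.58 in KO, from 0.389 ± 0.0983 to 9.05 ± 1.16 CPM. Tnf rose by 2.06, from 9.32 ± 0.193 to 39.4 ± 2.92 CPM, and Acod1 by 2.91. Gdf15 was 4.02 ± 0.796 CPM in untreated KO cells and 4.57 ± 0.311 CPM with OVA, a log2 difference of 0.15 that was not called. Among the 12 largest falls, 9 were called lower in KO, including Fosb (-1.27), Egr1 (-0.99), Banp (-0.54) and Hsph1 (-0.45).

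The difference between the WT and KO responses was tested as an interaction, and it called no gene (edgeR), with 795 at an unadjusted p under 0.05 and 0 called by DESeq2. Rasgef1b rose by 1.02 in WT and 0.61 in KO, and the difference of 0.41 had an unadjusted p of 0.000341 and an edgeR adjusted p of 0.790. Ets2, an early factor gene picked after its values were seen, rose by 0.67 in WT and differed by 0.24 in KO (edgeR adjusted p of the difference, 0.751). The cholesterol list had 10 genes called higher in WT and 1 in KO, with none called in the interaction. Among all genes, 5.51% were called higher in WT and 1.88% in KO. Insig1, for example, was 104 ± 7.31 CPM in untreated KO cells and 127 ± 6.14 CPM with OVA (log2 0.29, against 0.58 in WT). A response called in WT alone is therefore not shown to differ between the genotypes.

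**Figure D4:**
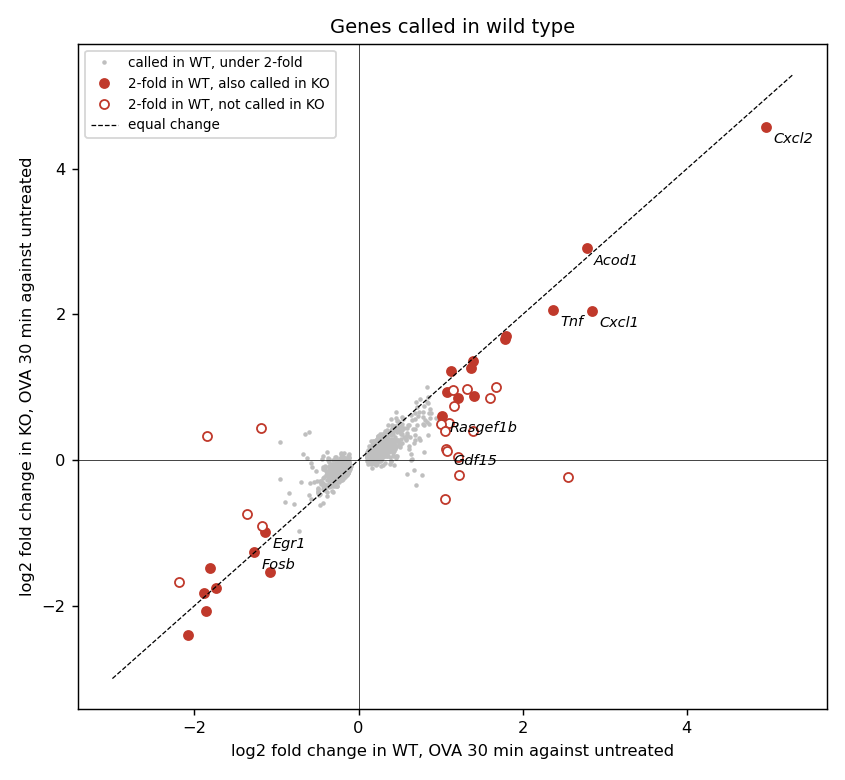
Each point is a gene called in WT, with its log2 fold change at 30 min of OVA in WT on the x axis and in KO on the y axis; red points changed at least 2-fold in WT, filled where also called in KO. The dashed line marks equal change. Filled points were chosen as called in KO, which favours places nearer that line than those of the open points. Cxcl2 has 4.96 in WT and 4.58 in KO.

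The later OVA libraries were compared directly with the 30 min ones. These are the 30 min libraries by which the largest rises and falls were chosen, and that choice favours a lower level for the rises and a higher one for the falls on the other side of the comparison. The counts over those genes are therefore given as a description. Between 4 h and 30 min in WT cells, 4396 genes were called, 29.7% of those tested, with 2212 higher (14.9%) and 2184 lower (14.7%) at 4 h. Of the 12 largest rises, 7 were higher still at 4 h, 1 was lower and 4 were not called. Acod1 went from 10.5 ± 0.400 CPM at 30 min to 107 ± 20.1 CPM at 4 h (log2 3.34), Clec4e from 12 ± 1.47 to 52.0 ± 8.54 CPM (2.11) and Ccl4 from 6.47 ± 0.429 to 26.7 ± 5.06 CPM (2.04). Cxcl2 was lower at 4 h, at 15.3 ± 3.12 against 20.1 ± 1.83 CPM (-0.41; edgeR adjusted p = 0.013). Tnf was 57.0 ± 7.37 CPM at 4 h, and its log2 difference of 0.07 from 30 min was not called.

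The 12 largest falls, chosen as low in the 30 min libraries, were all called higher at 4 h than at 30 min. Egr1 reached 55.1 ± 5.53 CPM against 22.4 ± 1.23 CPM (log2 1.30), and Hsph1 60.0 ± 2.68 against 40.5 ± 0.226 CPM (0.57). Fosb was 5.16 ± 0.718 CPM at 4 h, above its 3.69 ± 0.222 CPM at 30 min (0.48). Interferon-stimulated genes, none of which was called at 30 min, were higher at 4 h than at 30 min in 40 of 40 members, against 14.9% of all genes, with a median difference of 1.03. Cxcl10 went from 5.21 to 74.2 ± 13.4 CPM (log2 3.83). Maturation genes were higher at 4 h in 16 of 24 members and lower in none. The genes with the smallest p in this comparison were Ikbke, an NF-kB and interferon pathway kinase gene (1.61), the matrix protease gene Mmp14 (1.32), Sod2 (0.68) and the lectin gene Clec4a1 (0.67).

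**Figure D5:**
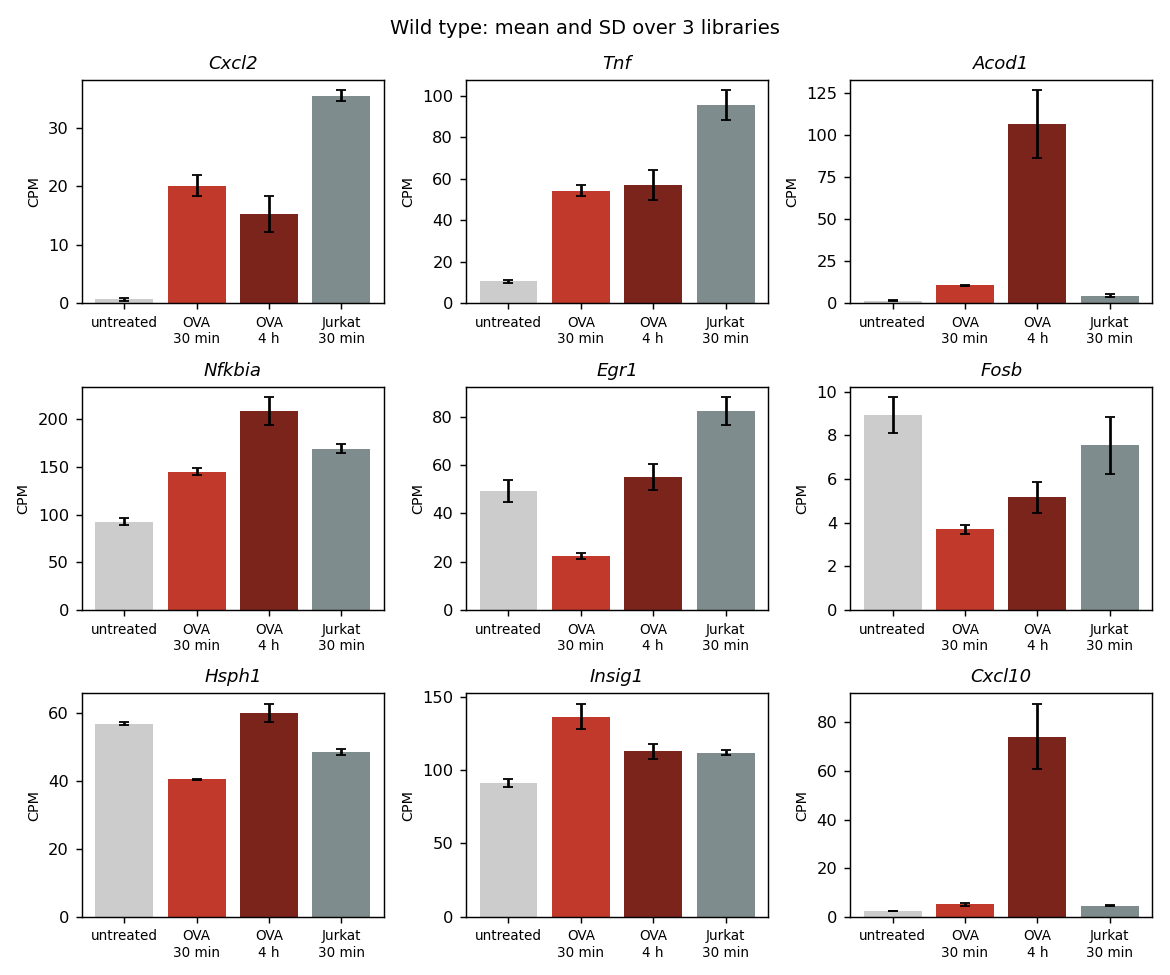
Bars are mean levels in CPM over 3 WT libraries and error bars are SD, for untreated cells, OVA for 30 min, OVA for 4 h and apoptotic Jurkat cells for 30 min. Tnf is at 54.1 CPM at 30 min and 57.0 CPM at 4 h of OVA, Acod1 and Cxcl10 reach 107 and 74.2 CPM at 4 h, and the bars of Egr1, Fosb and Hsph1 are lowest at 30 min of OVA.

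OVA and apoptotic Jurkat cells were also compared at the same time, 30 min, in WT cells. Reads of the human Jurkat cells can enter the Jurkat libraries, and how they were counted is not given in the sources used here. Of the genes tested, 3591 were called, 24.3%, with 1765 higher (11.9%) and 1826 lower (12.3%) with Jurkat cells than with OVA. Lef1, a T-lineage factor gene, was at 17.2 ± 0.719 CPM with Jurkat cells and 0.153 ± 0.0784 CPM with OVA, and Acta1, a skeletal actin gene, at 7.11 ± 0.736 and 0.0278 ± 0.0241 CPM. Egr3 and Nr4a1, which complete the genes with the smallest p, were higher with Jurkat cells by 1.91 and 1.11.

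The OVA libraries of this comparison are again those by which the 24 genes were chosen, so the counts over them are a description. Of the 12 largest OVA rises, 5 were higher with Jurkat cells than with OVA and 4 lower. Cxcl2 was 35.5 ± 0.952 CPM with Jurkat cells against 20.1 ± 1.83 CPM with OVA (log2 0.82), and Tnf 95.6 ± 7.07 against 54.1 ± 2.66 CPM (0.82). Gdf15 (1.46), Ccl4 (0.94) and Egr2 (0.88) were also higher. Acod1 (-1.23), Mefv (-0.88), Cdc42ep2 (-0.84) and Prdm1 (-0.40) were lower. Egr1 was 82.4 ± 5.78 CPM with Jurkat cells, 1.88 above OVA on the log2 scale, and of the 12 largest falls, chosen as low with OVA, 7 were higher with Jurkat cells and none lower, against 11.9% and 12.3% of all genes. Fos, Jun and Junb, none of which was called for OVA against untreated cells, were higher with Jurkat cells than with OVA by 1.21, 0.62 and 0.48. The cholesterol list was lower with Jurkat cells than with OVA in 10 of 23 genes and higher in none, with Hmgcs1 at 173 ± 2.66 against 252 ± 17.2 CPM (-0.54).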

How the data were processed

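RNA sequencing counts were used from the 3 WT OVA 30 min and 3 WT untreated libraries, in a model of all 30 libraries. The authors deposited whole-number counts per gene with mm10 intervals, per the file headers. The submitters' processing notes name STAR 2.5, Subread, featureCounts 1.5.0-p1, DESeq2 and the build mm10, with no roles. Annotation and strand setting are not given in the sources used, so overlapping, antisense and near-identical genes are uncertain. Total RNA was taken up in Trizol, cleaned on columns and treated with DNase before TruSeq v2 library preparation, per the labels.

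Groups and replicate numbers came from the titles. The table held 25611 gene rows and 396 symbols at more than 1 interval. Genes were kept with filterByExpr by group, counts were scaled by TMM, and edgeR 4.0.16 (R 4.3.3) gave a quasi-likelihood F test, two-sided, with 1 mean for each group and without covariates. A call is a Benjamini-Hochberg adjusted p under 0.05 over 14808 genes. SE is the log2 change divided by the square root of F. Deviations of same-numbered libraries correlated at 0.62 and 0.51 for replicates 1 and 3 but at -0.15 for replicate 2 (over 10098 genes). Since not every pair was over 0.1, numbers were not used as pairs. In data simulated for this comparison over 14451 genes, the script recovered 82% of 100 genes changed 1.5-fold and 93% of 100 changed 2-fold, with 12 false calls. Every gene was simulated with the same relative spread and independent libraries, so the number of false calls may not hold for the real data. Depth was 42.7 M to 47.3 M counts per library.

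The comparison and the gene lists were chosen with earlier results of these data known. Named genes are the 12 largest rises and 12 largest falls that were called, reached 5 CPM in the higher mean and had no overlap between libraries. To these come up to 5 called and 3 uncalled members of each list, any member of the NF-kB, AP-1, early gene, feedback, chemokine and cytokine lists, and up to 4 genes of each direct comparison. Alternatives were DESeq2 1.42.0, DESeq2 size factors, total counts, no filter, at least 5 CPM in 3 libraries, a replicate block, only the groups compared, and leaving out each library. Promoters are RefSeq sequences of GRCm38.p6. Some members of the lists are not reported here by name.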

Additional observations from a re-analysis of the deposited data

Results flagged for a closer look

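In 20 of the 24 genes with the largest changes, the level at 4 h of OVA differed from that at 30 min by the direct test (edgeR, adjusted p under 0.05), which called 29.7% of all genes. The 24 genes were chosen by the same 30 min libraries that this test uses, which favours a difference back towards the untreated level, so the count is a description. On the log2 scale, 4 h minus 30 min, the difference was 3.34 for Acod1, 2.11 for Clec4e, 2.04 for Ccl4, 0.70 for Gdf15, 0.52 for Mefv, 0.46 for Cdc42ep2, 0.42 for Rasgef1b and -0.41 for Cxcl2. Among the falls it was 1.30 for Egr1, 0.59 for Tubd1, 0.57 for Hsph1, 0.54 for Tra2a, 0.49 for Wdcp, 0.48 for Fosb, 0.45 for Tfcp2, 0.43 for Bhlha15, 0.39 for Proser3, 0.37 for Mettl8, 0.31 for Banp and 0.24 for Aplf. Groups of 3 libraries were too small for a check of single outlying libraries.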

How the results depend on the processing

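The 24 genes with the largest changes, and Cxcl1, kept direction and call in all 13 other fits. Of 116 genes followed, 110 were called, and of 1506 pairs of gene and fit none changed direction, 134 lost a call and 3 gained one. The count of calls, 1578, was 833 with only the groups compared and 903 to 1847 over the fits that left out 1 library. The KO count, 558, was 246 with only the groups compared and 173 to 710 with 1 library left out. The count at 4 h against 30 min was 3147 to 3932 with 1 library left out (4396 with all), that of Jurkat cells against OVA 2596 to 3520 (3591), and the interaction had 0 throughout. The replicate block, taken within each genotype, gave 1688 calls and changed no call of the 24 genes; untreated replicate 2 correlated best with OVA replicate 3, not with its own number. Other scalings moved the median of all genes in WT OVA against untreated by at most 0.0032. The causes were not tested. Of the 41 changes of at least 2-fold, 20 lay under 1 CPM in both groups, where few reads stand behind a value.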

Other observations

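Some genes outside the lists also rose, and are given here as chosen after their values were seen. Cirbp, an RNA-binding protein gene known to be induced by mild cold, stood at 49.8, 49.7 and 46.2 CPM untreated and at 73.3, 73.8 and 72.3 CPM with OVA. It was higher in 3 of 3 OVA libraries (log2 0.59, SE 0.07; edgeR adjusted p = 4.82e-07), rose by 0.44 in KO, and at 4 h was 41.4 ± 2.67 CPM (SD, n = 3), lower than at 30 min. Rbm3, another such gene, was 226 ± 9.39 CPM untreated and 248 ± 2.16 CPM with OVA and did not pass the test (edgeR adjusted p = 0.0766). Cirbp with apoptotic Jurkat cells for 30 min was 80.5 ± 3.94 CPM, a log2 difference of 0.14 from OVA that was not called.

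Gpr84, a receptor gene for medium-chain fatty acids, rose from 0.914 ± 0.157 to 3.14 ± 0.167 CPM (log2 1.78) and was 11.9 ± 2.22 CPM at 4 h. Rab20, which encodes a small GTPase of phagosome maturation, rose from 1.46 ± 0.244 to 3.86 ± 0.375 CPM (log2 1.41). Lilr4b, which encodes an immunoglobulin-like receptor, rose from 56.6 ± 5.32 to 98.4 ± 14.9 CPM (log2 0.80). Irf8, the called member of both marker lists and the lineage factor gene of plasmacytoid and type 1 conventional dendritic cells, was 2164, 2195 and 2284 CPM untreated and 1904, 2082 and 2043 CPM with OVA, a fall of 0.14 on the log2 scale whose call was lost in 4 of 13 other fits.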
